A study of Mus musculus with 8 samples.

Results

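The input RNA of fetal ovaries was compared with that of fetal testes in a set of microarrays made for RNA immunoprecipitation with an antibody against DAZL, a germ cell RNA-binding protein. Input RNA is the RNA of the cleared lysate before the antibody was added, so it holds the transcripts of all cells of the gonad. Gonads were collected from embryos of strain MCH at E14.5, counted in days of embryonic development, and 50 gonads were homogenized for each lot. XX gonads gave 2 input arrays and XY gonads gave 2, out of 8 arrays in all, and the arrays of precipitated RNA were not used. No transgene, mutation or drug was named for these groups, and both were treated alike: 5% of the lysate was taken as input and 50 ng of RNA was labelled with Cy3. A probe entered the comparison when its position lay on an autosome and the scanner software marked both XX input arrays, both XY input arrays or all 4 as well above background. Of 41144 probes with values, 17471 were such members, and they stood for 11714 named genes of 18856 with an autosomal probe.

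XX and XY germ cells reach the fetal gonad as the same kind of cell and then follow different courses. In the ovary, retinoic acid and bone morphogenetic proteins lead them to express STRA8 and to enter meiotic prophase, in which axis proteins and the synaptonemal complex organize chromosomes and programmed DNA breaks are repaired by recombination. In the testis, Sertoli cells enclose them in cords and degrade retinoic acid with CYP26B1, the germ cells cease to divide and rest in the G0/G1 phase, and NANOS2, the piRNA pathway and DNMT3L take part in the male programme and in de novo DNA methylation.

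The 2 XX arrays lay on 1 slide and the 2 XY arrays on another, so slide and gonad type cannot be told apart in any difference below. The labels number the arrays as replicates but do not say that their lots came from separate litters, so the p-values measure the spread between these arrays, which may be technical. On the XX arrays 20409 and 16732 probes were well above background, and on the XY arrays 18544 and 17919 were. Pearson's correlation over the 15413 probes that all 4 arrays had above background was 0.990 between the XX arrays, 0.993 between the XY arrays and 0.917 to 0.924 between a XX and a XY array; probes are not independent replicates. The labels were checked on the sex chromosomes. Xist was above background on both XX arrays and neither XY array, Ddx3y, Eif2s3y and Kdm5d were above background on both XY arrays and neither XX array, and Uty, though probed, was too dim to be tested.

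Values below are the log2 of the signal relative to each array's 75th percentile, so that 0 stands for that percentile, and a difference is the mean of the XX arrays minus that of the XY arrays with its standard error (SE, n = 2 arrays per group). A level may be compared between arrays but not between probes. A probe was called when limma gave a Benjamini-Hochberg adjusted p under 0.05 over all 18239 probes tested, sex chromosomes included, and the groups differed at least 2-fold. Of the 17471 autosomal probes, 1963 were called higher in XX input (11.2%) and 1948 higher in XY input (11.1%), while 75.9% had groups that did not overlap. With 1 probe for each gene, 1207 of 11714 genes were higher in XX input (10.3%) and 1448 were higher in XY input (12.4%), and these shares are the background for the counts that follow. The gene lists below were chosen with earlier results of these data known, so their counts are a description and not a test. The median difference over all 11714 genes was -0.03. The number of calls differed between settings, with 982 and 1051 probes called when all 8 arrays joined the fit, 528 and 484 with unmoderated variances, 383 and 367 without the filter on dim probes, 22 and 5 after a normexp background correction and 751 and 759 after it with 16 outlying local backgrounds replaced. With normexp as such, 6 of the 137 called genes of the lists below or among the largest differences also changed direction. These were Cdc20, Cdh16, Hsf2bp, Irx5, Msx2 and Taf4b, and reversals among the other called probes were not counted.

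The filter itself favours differences, because a probe that is bright in 1 gonad type and dim in the other passes through the bright one. Among the 14782 probes above background on all 4 arrays, 1327 were called higher in XX and 1122 higher in XY. A further 586 probes were above background on both XX arrays and neither XY array, of which 482 were called, and 510 showed the opposite, of which 462 were called. For a probe in these last classes the dim group has only a bound, so its change is written as a lower limit ("at least"), taken against the dimmest signal that counted as well above background on each array, or against the probe's own signal where higher. Where 1 array of the dim group had the probe above background, the fold rests on the values of both arrays, 1 of them not above background. Of the called probes above background on all 4 arrays, 51 reached 8-fold toward XX and 73 toward XY, and for 32-fold the numbers were 5 and 10. The gonads are mixtures, and in such bulk RNA fewer cells of a type and less RNA per cell cannot be told apart.

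**Figure D1:**
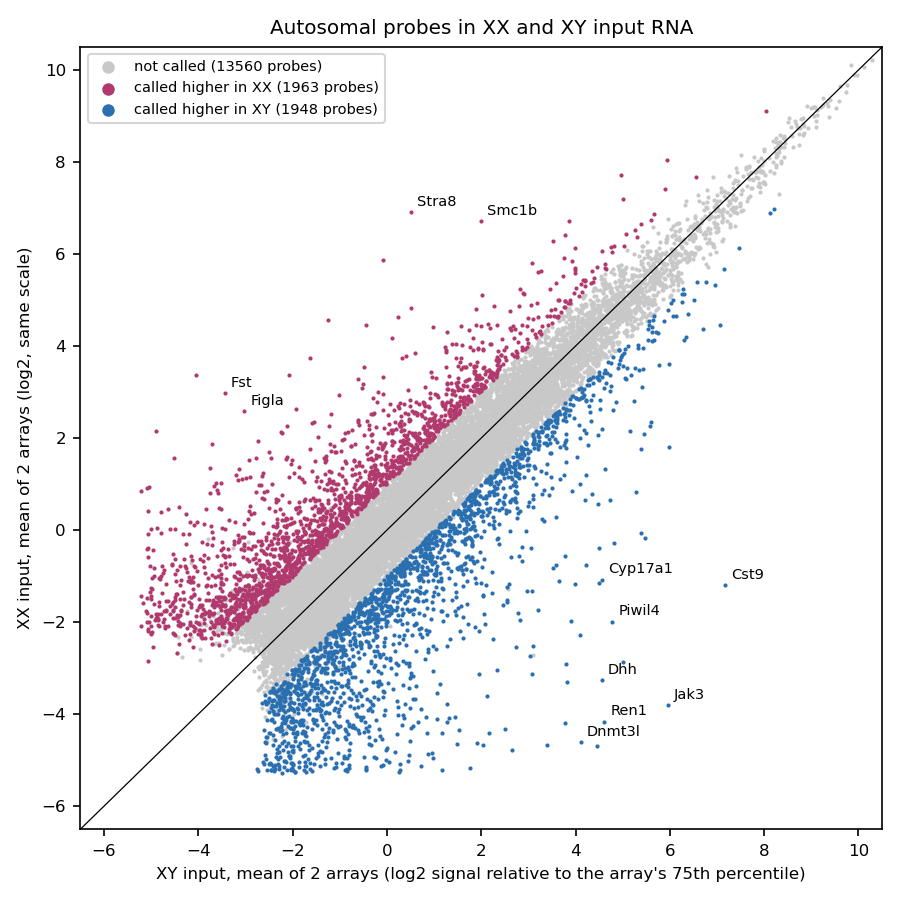
Mean log2 signal of the 17471 autosomal probes in XX input (vertical axis) against XY input (horizontal axis), each the mean of 2 arrays relative to the array's 75th percentile, with the line of equal signal. Coloured points are the 1963 probes called higher in XX and the 1948 called higher in XY, and the gene names mark probes described in the text, such as Stra8 above the line and Cst9 below it.

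Genes of meiosis stood higher in XX input. The 3 lists of meiotic genes held 48 genes, of which 39 were matched to a probe and 36 were tested, and 28 of the 36 were called higher in XX and 0 higher in XY, against 10.3% and 12.4% of all genes. Of the 29 that were above background on all 4 arrays, 21 were called higher in XX. Their called members spanned the onset of meiosis, the chromosome axis and the repair of DNA breaks.

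Of 10 tested genes of meiotic entry, 9 were called, with a median difference of 2.82 and adjusted p of at most 0.0147. Rec8, Mei1, Hormad1, Rnf212 and Sycp3 of this list were also members of the axis or recombination lists below. The counts of the meiotic lists are therefore not independent of each other. Stra8, which retinoic acid induces and without which XX germ cells do not complete premeiotic replication, read 6.88 and 6.96 on the XX arrays and 0.28 and 0.73 on the XY arrays (probe at chr6:34869383-34869442, mm8). The XX arrays were far above the XY arrays, and the difference of 6.41 ± 0.19, or 85.2-fold (adjusted p = 0.000226), was the largest in this direction among genes measured above background on every array. Meioc, whose product keeps germ cells in meiotic prophase together with YTHDC2, read 3.29 and 3.47 on the XX arrays and -2.16 and -2.01 on the XY arrays, a difference of 5.47 ± 0.14. Ythdc2, which encodes its RNA helicase partner, read -0.22 and -0.49 against -3.84 and -2.25, and only the second of these XY arrays had it above background. The groups did not overlap for either gene. The transcription factor genes Msx1 and Msx2, targets of bone morphogenetic protein signalling, were 3.84-fold and 2.27-fold higher in XX. Rnf212, which acts later at crossover sites, did not reach 2-fold, with 2.01 and 2.12 on the XX arrays and 1.42 and 1.50 on the XY arrays.

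All 12 tested genes of the synaptonemal complex, chromosome axis and meiotic cohesin were called higher in XX, and all 12 were above background on all 4 arrays. Their differences ran from 1.78 to 4.72 with a median of 3.02, and adjusted p was at most 0.00109. Smc1b, a cohesin subunit particular to meiosis, read 6.57 and 6.86 on the XX arrays and 1.83 and 2.16 on the XY arrays, a difference of 4.72 ± 0.19 (chr15:84892529-84892588, mm8). The other meiotic cohesin genes, Rec8 and Stag3, differed by 2.66 ± 0.14 and 1.78 ± 0.14. Sycp3, an axis protein, read 4.37 and 4.44 against 0.94 and 0.99, and Sycp1, the transverse filament that joins the paired axes, read 3.89 and 3.58 against 0.41 and 0.23. The central element genes Syce1, Syce2, Syce3 and Tex12 were 4.86-fold to 14.9-fold higher in XX. Stag3, Tex12 and Syce2 were also well above background in XY, at 3.63 and 3.53, at 2.78 and 2.98, and at 3.83 and 3.88.

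The recombination list was divided. Of 19 tested genes 11 were called higher in XX, with adjusted p of at most 0.0110, and 8 were not called. Of the 13 above background on all 4 arrays 5 were called, with a median difference of 0.85, and the other 6 calls were of genes that passed the filter through XX. M1ap read 5.91 and 5.81 on the XX arrays and -0.17 and -0.01 on the XY arrays, a difference of 5.95 ± 0.14. Meiob, a single-strand DNA-binding protein of meiosis, read 4.54 and 4.57 against -1.07 and -1.42, and Mei1 and Iho1, which are needed for break formation, differed by 5.38 ± 0.18 and 4.58 ± 0.13. Spo11, the enzyme that makes the breaks, read 0.54 and 0.79 against -2.86 and -2.35, with 1 of the XY arrays above background. For Dmc1, the meiotic strand exchange protein, the XX arrays read 0.11 and -0.04 and neither XY array was above background, so that XX was at least 7.64-fold higher. The same held for Rad51ap2, Msh5, Msh4 and Hsf2bp, with bounds of at least 17.2-fold, 7.08-fold, 4.65-fold and 1.77-fold, though Hsf2bp read -2.87 and -1.29 on the XX arrays, which lay far apart. Among the genes that were not called, the accessory factors of DMC1 moved little or the other way. Psmc3ip differed by 0.17 ± 0.18, and Mnd1 lay lower in XX by 0.91 on the log2 scale without reaching 2-fold. Zcwpw1 was not called on its brighter probe (1.69 ± 0.64) with 1.26 and -0.30 in XX and -0.60 and -1.80 in XY, and it was called on its other probe (2.24 ± 0.15).

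**Figure D2:**
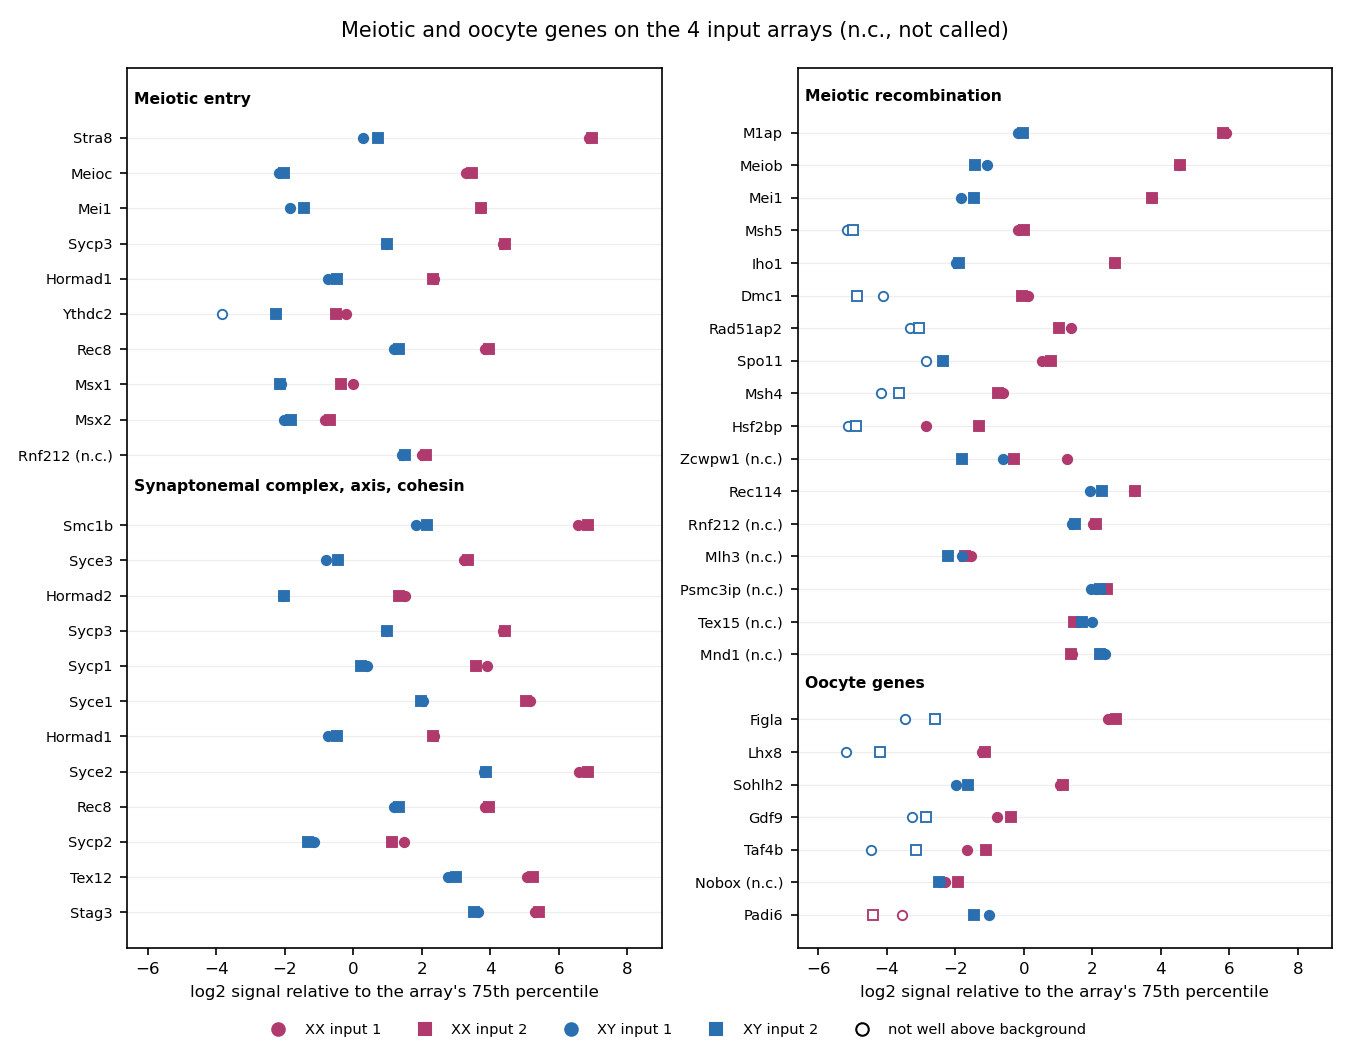
Log2 signal relative to the array's 75th percentile (horizontal axis) of tested genes of 4 lists on the 4 input arrays, XX in dark red and XY in blue, with open symbols where a spot was not well above background. All genes of the synaptonemal complex panel show both XX arrays to the right of both XY arrays, whereas Mlh3, Psmc3ip, Tex15 and Mnd1 at the foot of the recombination panel lie close together or reversed.

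Because these genes moved together, their promoters were searched for TCCCGC, the core of sites bound by E2F proteins, among which E2F6 is known to silence germline genes in somatic cells. RefSeq promoters of GRCm38.p6, windows of 300 bases that lie mostly before the gene start, were at hand for 25 of the 28 called meiotic genes, and 16 of them (64.0%) held the core on either strand. The share was 22.3% over 25748 autosomal genes with a promoter and 39.9% over the 9355 tested genes with one. The latter are 79.9% of tested genes, under the 80% that such a comparison would need, so it is void and the shares are given only as a description. A short core is also frequent where CpG is frequent, and the median number of CpG in the window was 18 for the meiotic genes, 22 for tested genes and 8 for all. Other called genes described above, among them Sycp1, Rec8, Syce2, Dmc1, Msh5, Hsf2bp and Msx1, also held the core and are not shown. The 6 windows below are examples from genes described above, 5′ to 3′ on the gene's strand, with the core or its reverse complement in capitals.
Smc1b, chr15:85131969-85132034, minus strand: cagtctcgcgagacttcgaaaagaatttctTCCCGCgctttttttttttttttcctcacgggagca
Stag3, chr5:138280477-138280542, plus strand: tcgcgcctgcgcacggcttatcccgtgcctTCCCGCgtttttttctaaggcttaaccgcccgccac
Tex12, chr9:50561378-50561443, minus strand: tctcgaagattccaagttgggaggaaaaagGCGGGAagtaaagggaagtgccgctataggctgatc
Sycp3, chr10:88459410-88459475, plus strand: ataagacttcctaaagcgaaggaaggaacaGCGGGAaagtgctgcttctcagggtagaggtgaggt
Meioc, chr11:102665335-102665392, plus strand: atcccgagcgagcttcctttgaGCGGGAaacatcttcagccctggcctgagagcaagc
M1ap, chr6:82946804-82946869, plus strand: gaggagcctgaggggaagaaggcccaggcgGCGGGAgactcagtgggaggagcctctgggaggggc
A match says only that these letters occur in the window, and the window of Stra8 held none.

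The genes of early oocyte differentiation were mostly dim. Of 7 tested genes 5 were called higher in XX and 1 higher in XY, with adjusted p of at most 0.0138, and only Sohlh2, which was called, and Nobox, which was not, were above background on all 4 arrays. The other 4 calls toward XX were of genes above background on neither XY array, which entered through XX, so that the filter favoured a difference. The calls toward XX fell to 2 without the filter on dim probes and to 0 with normexp, with a list median of 0.0087. Figla, the factor that governs the zona pellucida genes, read 2.47 and 2.69 on the XX arrays and was above background on neither XY array, at least 42.9-fold lower there (chr6:85986535-85986594, mm8). Sohlh2 read 1.06 and 1.14 against -1.97 and -1.64. Lhx8 and Gdf9, at least 3.29-fold and 4.98-fold higher in XX, and Taf4b, at least 2.87-fold higher, were dim. The zona pellucida genes Zp1, Zp2 and Zp3 were too dim to be tested. Nobox did not differ beyond the spread of the arrays (0.35 ± 0.17). Padi6, a gene of the growing oocyte, was the exception, with -3.56 and -4.39 on the XX arrays, not above background, and -1.03 and -1.45 on the XY arrays, at least 3.27-fold higher in XY.

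Genes that mark germ cells of both sexes were divided. Of 21 tested members 2 were called higher in XX (9.52%) and 8 higher in XY (38.1%), against 10.3% and 12.4% of all genes, and 11 were not called. Of the 17 above background on all 4 arrays 2 were called higher in XX and 5 higher in XY, with a median difference of -0.37. Ddx4, a helicase of germ cells, read 4.83 and 5.10 on the XX arrays and 5.03 and 5.28 on the XY arrays, so that the groups overlapped (-0.19 ± 0.17, adjusted p = 0.4). Kit, Stk31, Tdrd7 and Ifitm3 differed by -0.37, 0.46, 0.22 and 0.49 and were not called. Dazl read 5.30 and 5.39 against 3.92 and 4.33, which was 2.33-fold higher in XX, and its second probe differed by 1.54 ± 0.16. Elavl2 was 2.23-fold higher in XX. The 8 genes called higher in XY included several that pluripotent cells also express. Dppa4 read -1.81 and -2.13 in XX and 3.82 and 3.98 in XY, a difference of -5.88 ± 0.17 or 58.8-fold, and Dppa3 read 1.65 and 1.97 against 5.76 and 6.23. Pou5f1, which encodes the pluripotency factor OCT4, was above background on only 1 XX array and 13.0-fold higher in XY. Utf1, Lin28a and Tfap2c were 7.46-fold, 4.29-fold and 3.24-fold higher in XY, Utf1 with only 1 XX array above background. Sox2 read -3.07 and -2.79 against -2.09 and -1.79 and fell just short of 2-fold, and Nanog was too dim to be tested. Prdm1 (-1.04 ± 0.44), Dppa5a (-0.75 ± 0.24) and Tdh (0.74 ± 0.32) were not called. Dnd1, an RNA-binding protein needed for germ cell survival, differed by -4.33 ± 0.18, and its partner gene Nanos3 was at least 9.09-fold higher in XY. Sall4 was not called on its brighter probe (-0.10 ± 0.17) and was called higher in XY on the other (-3.90 ± 0.15), so whether this gene was called depends on the probe.

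The genes of the male germ cell programme stood higher in XY input. Of 17 tested genes of the piRNA pathway, NANOS2 and de novo DNA methylation, 13 were called higher in XY (adjusted p at most 0.00292) and 0 higher in XX, and of the 13 that were above background on all 4 arrays 9 were called. The median difference was -2.13. Dnmt3l, the cofactor of de novo DNA methyltransferases, read 4.13 and 4.10 on the XY arrays and -5.07 and -4.16 on the XX arrays, neither above background, which made XY at least 135-fold higher (chr10:77466496-77466555, mm8). Piwil4, the nuclear piRNA-binding protein MIWI2, read 4.67 and 4.89 in XY and -2.01 and -1.96 in XX, all above background, a difference of -6.77 ± 0.14 or 109-fold. Its cytoplasmic relative Piwil2 differed by much less, with 1.75 and 1.86 against -0.37 and -0.25 (4.34-fold). Nanos2, the RNA-binding protein that directs male germ cell fate, read 0.10 and 0.23 in XY and was above background on neither XX array, at least 8.76-fold lower. Morc1, needed to silence transposons, was above background on only 1 XX array and differed by -5.78 ± 0.14. The Tudor domain genes Tdrd9, Tdrd5 and Tdrd1 differed by -4.33, -3.45 and -3.29 on the log2 scale, and Gtsf1, Exd1 and Asz1 were between 2.43-fold and 4.39-fold higher in XY. Mael, Pld6, Mov10l1 and Ddx4 were not called, with differences of -0.84, -0.83, -0.30 and -0.19. Dnmt3a was higher in XY on its brightest probe (2.55-fold) and on a second, and was not called on 1 more (-0.24 ± 0.13). Henmt1, which methylates piRNA ends, was called on 1 probe (at least 5.32-fold) and not on the other (-0.43 ± 0.54).

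Signals of the NODAL and activin family act between these cells. Among ligands, Nodal read -0.51 and -0.25 in XY and was above background on neither XX array, at least 6.01-fold lower, and Inhba, the activin A subunit, read 3.01 and 2.56 in XY and -1.49 and -2.10 in XX (24.0-fold). Inhbb and Inha, the other activin and inhibin subunits, were 4.29-fold and 8.37-fold higher in XY. Among inhibitors, Lefty2, a feedback target of NODAL, was at least 2.02-fold higher in XY. Fst, which encodes follistatin, the secreted antagonist of activin, went the other way and read 3.11 and 2.86 in XX and -3.16 and -3.72 in XY, at least 59.0-fold higher in XX (chr13:115575362-115576034, mm8). The receptors Acvr2a, Acvr2b and Acvr1b and the transducers Smad2 and Smad3 were not called, and their differences lay between -0.82 and 0.64. In all, 1 of 11 tested genes was called higher in XX and 5 higher in XY, and of the 8 above background on all 4 arrays 0 and 3 were called, with a median of -0.31. Lefty1, Tdgf1 and Otx2 were too dim to be tested.

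**Figure D3:**
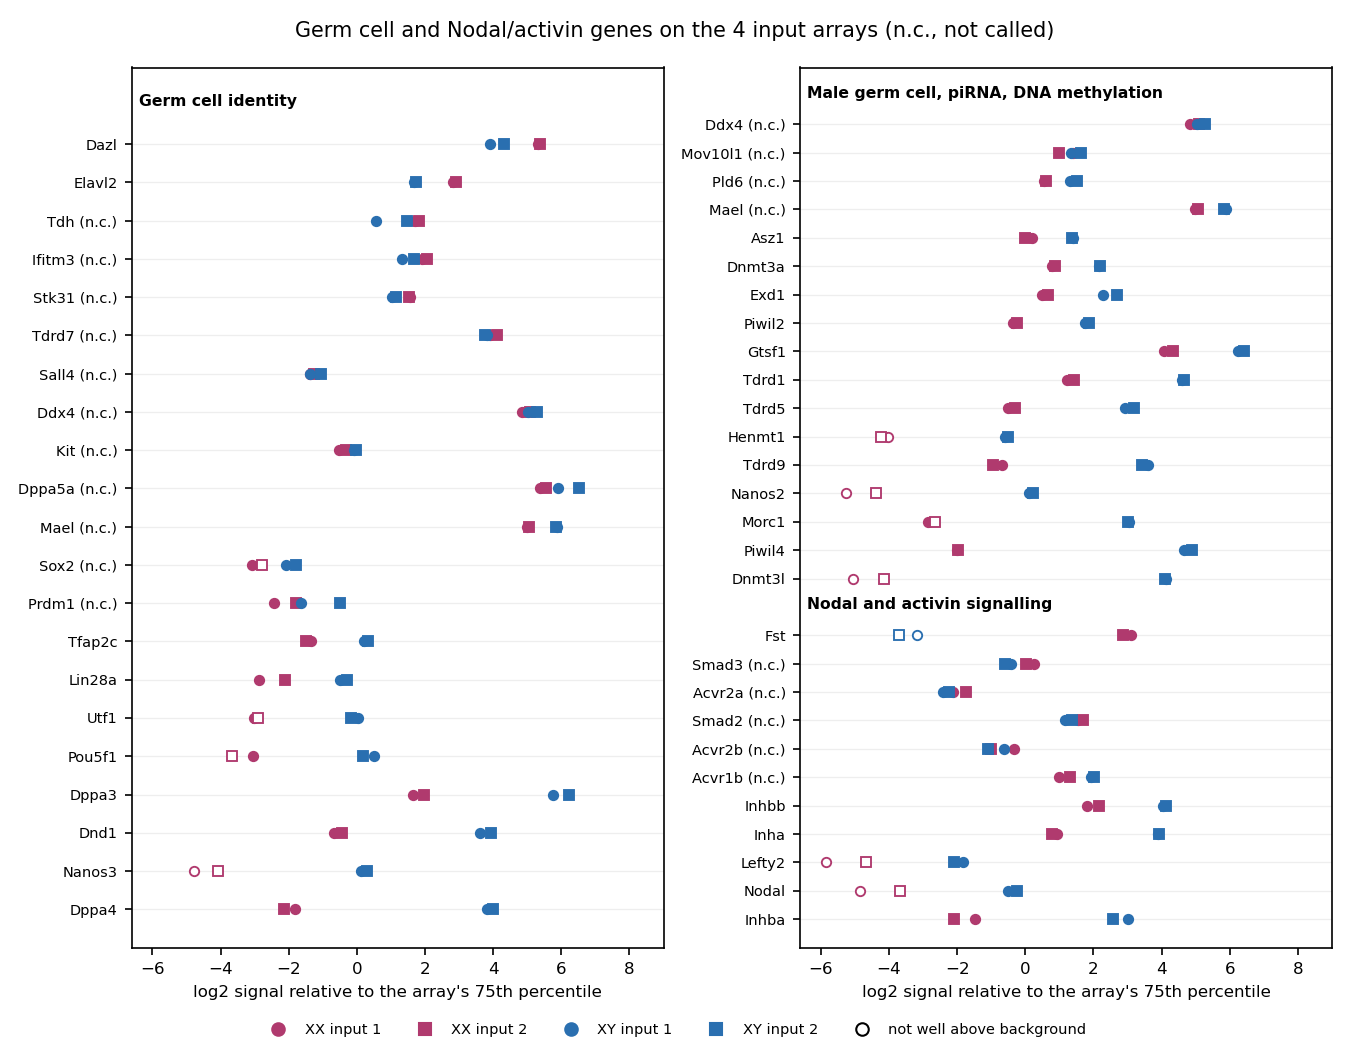
Log2 signal relative to the array's 75th percentile (horizontal axis) of each tested gene of the germ cell, male germ cell and Nodal and activin lists on the 4 input arrays, XX in dark red and XY in blue, with open symbols where a spot was not well above background. Ddx4, Kit and Tdrd7 show little separation, while Dppa4 and Piwil4 have differences of -5.88 and -6.77, Dnmt3l has open XX symbols and Fst lies in the opposite direction.

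Cell cycle genes were called in both directions. Of 19 tested regulators of G1 and S phase 4 were called higher in XX (21.1%) and 1 higher in XY (5.26%), with adjusted p at most 0.00699. The shares of all genes were 10.3% and 12.4%. The counts were 1 and 0 without the filter on dim probes, 1 and 1 with unmoderated variances, 0 and 0 with normexp and 2 and 0 with normexp after outlying local backgrounds were replaced. Ccne2, a cyclin of the G1 to S transition, read -0.11 and -0.19 in XX and was above background on neither XY array, at least 6.16-fold lower, and Ccne1 was 2.58-fold higher in XX on its brighter probe and short of 2-fold on the other (0.94 ± 0.14). The inhibitor genes moved apart. Cdkn1c (p57) read 6.18 and 6.08 in XX and 4.14 and 3.83 in XY, and Cdkn1a (p21) was 2.96-fold higher in XX. Cdkn2b (p15) read -1.78 and -1.72 in XX against -0.02 and -0.0045 in XY (3.33-fold higher in XY), and Cdkn1b (p27), at 0.55 ± 0.22, was not called. Rb1, Rbl1, Rbl2, E2f1, E2f2 and E2f3 were not called, with differences from -0.75 to 0.27.

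Of 25 tested genes of S phase and mitosis, all above background on all 4 arrays, 8 were called higher in XY and 1 higher in XX, against 12.4% and 10.3% of all genes, and the median difference was -0.73. The 8 were mitotic, namely Aurka, Aurkb, Ccnb1, Plk1, Cenpe, Cenpa, Cdk1 and Cdc20, and lay between 2.01-fold and 2.74-fold. Aurka, a spindle kinase, read 3.48 and 3.64 in XX and 5.02 and 5.01 in XY. The replication genes Pcna, Mcm2, Mcm3, Mcm4 and Mcm6 differed by -0.27 to 0.03, Mcm7 by -0.81 ± 0.15 and Mcm5 by 0.50 ± 0.13, and Mki67, a marker of cycling cells, by -0.29 ± 0.17, none called. Bub1, a checkpoint kinase, was the one higher in XX, with 4.30 and 4.60 against 2.74 and 2.98. Top2a, a topoisomerase, was not called on its brighter probe (0.84 ± 0.15) and was called higher in XX on the other (1.53 ± 0.21). These calls lie near the 2-fold limit. All 8 were lost when the precipitate arrays joined the fit, when no filter on dim probes was used and with normexp, under which the median of the list turned to 0.27 (3 calls toward XY and -0.57 with outlying local backgrounds replaced), and Ccnb1, Cdc20, Cdk1 and Cenpa each fell under 2-fold without 1 of the arrays. The values without that array were -0.97 for Ccnb1 (without XY replicate 2), -0.85 and -0.90 for Cdc20 (without XX replicate 1 and XY replicate 2), -0.96 and -0.93 for Cdk1 (without XX replicate 2 and XY replicate 1) and -0.96 and -0.99 for Cenpa (without XX replicate 1 and XY replicate 2).

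Somatic cell types gave some of the largest differences. Of 20 tested Sertoli cell genes 16 were called higher in XY and 0 higher in XX (adjusted p at most 0.00354), and of the 11 above background on all 4 arrays 9 were called. The median difference was -3.26, or -3.15 with the genes that were above background on neither XX array taken at their bounds. Cst9, a testis cystatin, read 7.37 and 6.97 in XY and -0.79 and -1.60 in XX, the largest difference among genes measured above background on every array (-8.37 ± 0.31, 331-fold, adjusted p = 0.000307; chr2:148530049-148530108, mm8). Dhh, the hedgehog ligand by which Sertoli cells act on Leydig and peritubular cells, read 4.42 and 4.68 in XY and was above background on neither XX array, at least 183-fold lower. Sox9, the factor that sets the Sertoli cell fate, read 1.88 and 1.78 against -0.70 and -0.64, which was 5.67-fold and well above background in XX too. Its relatives Sox8 and Sox10 were at least 2.44-fold and 4.37-fold higher in XY. Amh, the hormone that regresses the Müllerian ducts, read 0.35 and 0.63 in XY and was at least 10.9-fold lower in XX. Ptgds, which makes prostaglandin D2, was 50.0-fold higher. The last step of testosterone synthesis, which lies in fetal Sertoli cells, was represented by Hsd17b3 (at least 29.3-fold) and Hsd17b1 (at least 22.7-fold). Fgf9, Cldn11 and Nr5a1 were not called, and Cst8, a second cystatin gene, read 3.63 and 3.86 in XX and 3.02 and 3.26 in XY. Nr5a1, which encodes the regulator of steroid genes, overlapped between the groups, and the site it is known to bind, CAAGGTCA, was found in none of the 14 promoters at hand for the 26 called Sertoli and Leydig genes and in 1.75% of the 25748. With 53.8% of the genes covered, that check is void.

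Of 13 tested Leydig cell genes 10 were called higher in XY and 0 higher in XX (adjusted p at most 0.0233), and of the 7 above background on all 4 arrays 6 were called. The called genes covered the uptake of cholesterol and the enzymes of the steroid pathway. Star, which moves cholesterol into mitochondria, read 2.91 and 3.28 in XY and -2.48 and -2.57 in XX, of which only the first was above background (49.2-fold), and Cyp17a1 read 4.69 and 4.44 against -1.17 and -0.98 (49.9-fold). Hsd3b1 was 21.9-fold higher and the electron carriers Fdx1 and Fdxr 2.76-fold and 2.88-fold, whereas Por, the reductase that many cells use, read 3.92 and 4.21 in XY and 4.12 and 4.42 in XX. Cyp11a1, the side chain cleavage enzyme, was not called on its brighter probe, on which the XX arrays read -5.49 and 0.08, with 3.22 and 2.99 in XY (-5.81 ± 1.78, adjusted p = 0.0512). On its other probe Cyp11a1 was above background on neither XX array and was called, at least 44.3-fold higher in XY. Ren1, a fetal Leydig and adrenal cell renin gene, read 4.59 and 4.63 in XY and was above background on neither XX array, at least 191-fold lower. Ptch1, the receptor and target of DHH, was at least 3.81-fold higher in XY. Vcam1 differed by -1.97 ± 0.45, and its call was lost without XY replicate 1 or 2 (adjusted p = 0.0682 and 0.0674), while without XX replicate 1 the difference was -1.28. Insl3 was not matched to a probe, and Lhcgr was too dim to be tested.

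Ovarian supporting cell genes were higher in XX, 8 of 13 tested and 0 higher in XY (adjusted p at most 0.00683), with a median difference of 2.61, or 1.86 with Fst and Irx5 at their bounds. Of the 11 above background on all 4 arrays 6 were called, with a median of 1.18. Rspo1, the secreted activator of WNT signalling in the ovary, read 6.29 and 6.30 in XX and 3.46 and 3.59 in XY (6.80-fold). Wnt4, its partner, read 1.90 and 1.52 against 0.60 and 0.48, and at 2.26-fold it fell just under 2-fold without XX replicate 1 (0.99). Lgr5, a receptor for R-spondins, read 3.11 and 3.25 against -0.65 and -0.38, and Rnf43, which removes WNT receptors, was 8.37-fold higher. The WNT targets Axin2 (0.86 ± 0.22) and Znrf3 (0.93 ± 0.13) were short of 2-fold. Kitl, the ligand of the germ cell receptor KIT, was 6.10-fold higher in XX. Irx5 was at least 3.63-fold higher, and Gng13, a G protein subunit, 20.0-fold. Foxl2, Bmp2 and Irx3, defining genes of this cell type, had probes but were too dim to be tested. Runx1 was not called on its brighter probe (-0.13 ± 0.15), and on the other it read -0.85 and -1.13 in XX, was above background on neither XY array and was called, at least 3.76-fold higher in XX.

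Of 12 tested genes of retinoic acid metabolism and its receptors 1 was called higher in XX and 2 higher in XY, against 10.3% and 12.4% of all genes. Cyp26b1, the enzyme that degrades retinoic acid, read 4.05 and 3.93 in XY and -1.26 and -1.10 in XX, 36.0-fold higher in XY. Aldh1a1, a retinaldehyde dehydrogenase, was 4.98-fold higher in XY, while Aldh1a2, which makes retinoic acid in the mesonephros and gonad, read 4.27 and 4.31 in XX and 3.65 and 3.57 in XY and did not reach 2-fold. Rdh10, which makes retinaldehyde, was 2.01-fold higher in XX, and its call was lost without XX replicate 2 (0.98) or XY replicate 1 (0.85), while its second probe was also called (1.54 ± 0.16). The call on the brighter probe was also lost with all 8 arrays, without the filter, with unmoderated variances and with both forms of normexp. Scaling to the 75th percentile of probes above background on all 4 arrays lost it too. The receptor genes Rarb, Rxra and Rxrb were not called.

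**Figure D4:**
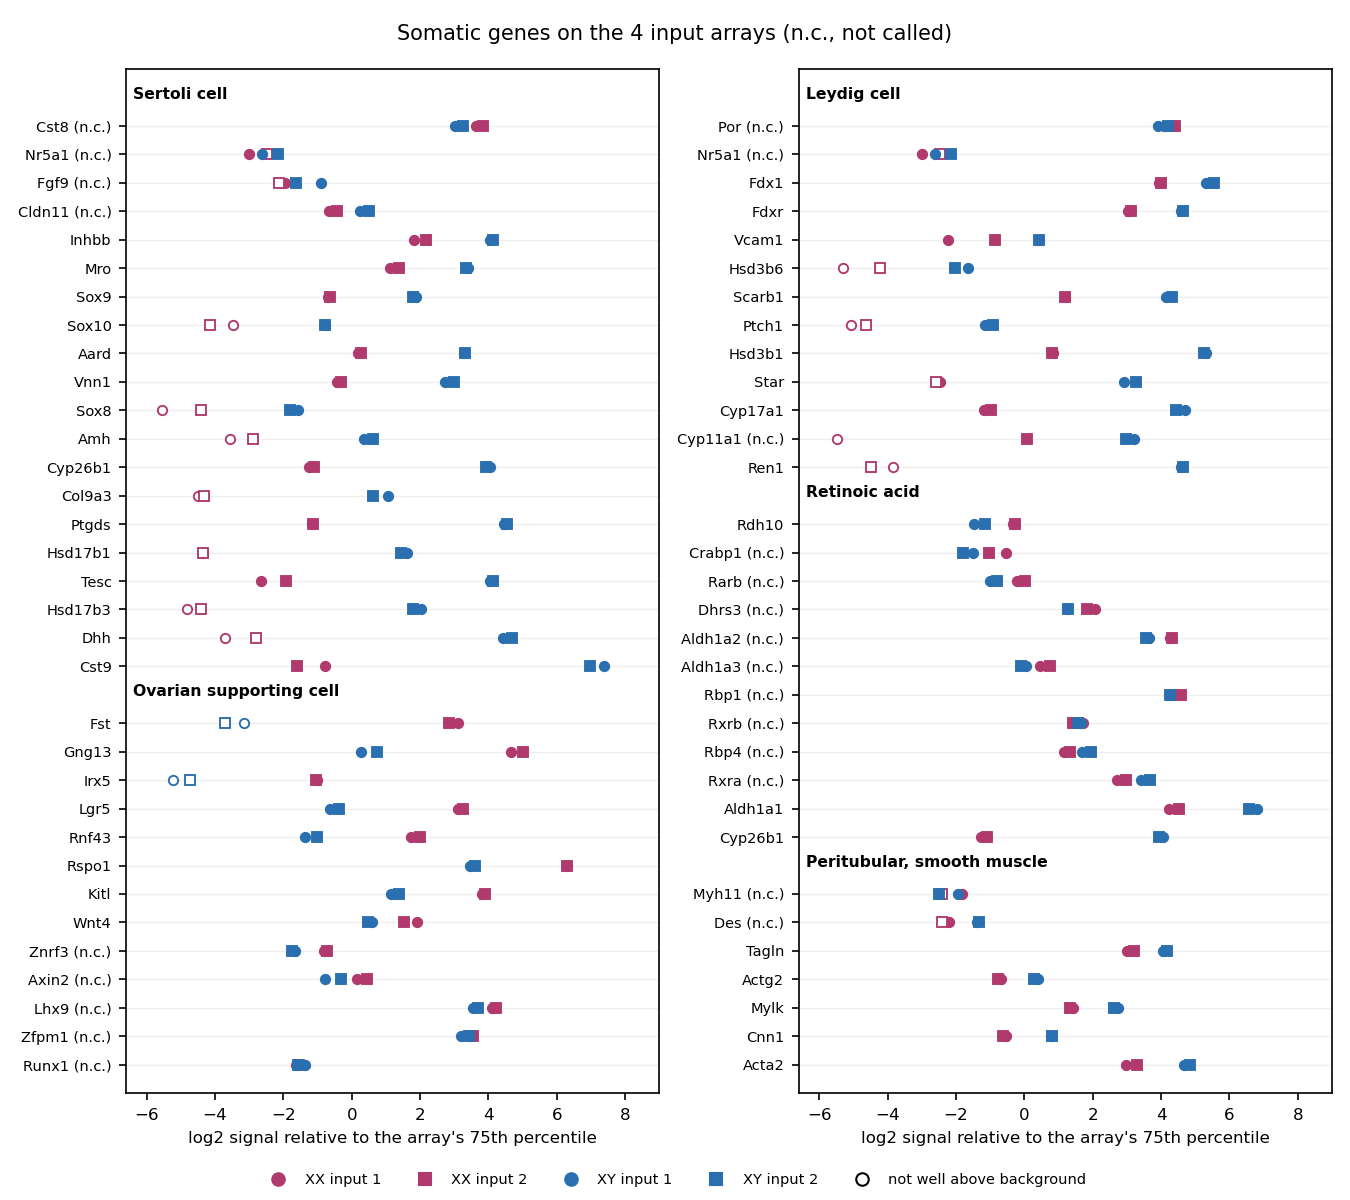
Log2 signal relative to the array's 75th percentile (horizontal axis) of each tested gene of the Sertoli, ovarian supporting, Leydig, retinoic acid and peritubular lists on the 4 input arrays, XX in dark red and XY in blue, with open symbols where a spot was not well above background. In the Sertoli and Leydig panels both XY arrays lie to the right of both XX arrays for all called genes, and the 2 XX arrays of Cyp11a1 stand apart at -5.49 and 0.08.

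Other cell types that a gonad holds were measured beside these lists. Smooth muscle genes of peritubular cells were higher in XY, 5 of 7 tested, from 2.01-fold for Tagln to 3.07-fold for Acta2, but 2 of the 5 calls were left when the precipitate arrays joined the fit and 0 without the filter on dim probes. Acta2 had 3 probes, of which the middle one by signal was not called (-0.47 ± 0.15). Tagln and Actg2 fell just under 2-fold without XX replicate 1 or XY replicate 2 (-0.91 and -0.95) and without XY replicate 1 (-0.997). In the endothelial list 1 of 14 tested genes was called in each direction (7.14%), against 10.3% of all genes toward XX and 12.4% toward XY. Vwf, the von Willebrand factor, read 3.01 and 3.15 in XY and -1.48 and -1.15 in XX (21.1-fold), whereas Cdh5, Emcn, Esam, Cldn5 and Egfl7 differed by -0.49 to 0.10 and Kdr was 2.31-fold higher in XX. The call of Kdr was lost with all 8 arrays, without the filter, with unmoderated variances and with normexp, which also lost that of Vwf, and the calls toward XY were 2 without either XX replicate. Of 16 matrix genes, the basement membrane collagens Col4a1 and Col4a2 were 2.71-fold and 2.34-fold higher in XY and Lamb2 2.80-fold higher in XX. The calls of both collagens were lost when all 8 arrays joined the fit, all 3 were lost without the filter and with normexp, and without XX replicate 2 the calls toward XY were 4.

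The globin genes Hba-a1, Hbb-y, Hba-x and Hbb-bh1 differed by -0.37 to -0.05 and none was called. Klf1 was the 1 of 7 tested erythroid genes called, at 2.69 ± 0.38 higher in XX, with only 1 XY array above background. The call of Klf1 was lost with all 8 arrays, without the filter, with unmoderated variances and with both forms of normexp. The mean level of the 8 tested macrophage genes was -1.39 and -1.20 on the XX arrays and -1.39 and -1.20 on the XY arrays, and Cd68 was the 1 called (2.15-fold higher in XY), a call lost without XX replicate 2 or XY replicate 2 (-0.84 and -0.93). Cd68 passed the filter through XY alone, and of the 7 genes above background on all 4 arrays 0 were called. For the mesonephros, the kidney tissue attached to the gonad, 4 of 9 genes were tested. Gata3 and Cdh16 were at least 6.63-fold and 2.36-fold higher in XX, Lhx1 was not called (-0.46 ± 0.30), and Pax2, Pax8, Wnt9b, Wnt7a and Ret were too dim to be tested. The mean level of the 4 was -1.76 and -1.56 in XX and -2.90 and -3.08 in XY, but Gata3 and Cdh16 passed the filter through XX alone, and the 1 gene above background on all 4 arrays differed by -0.038. The median of the 4 was 1.13, or 0.60 with Gata3 and Cdh16 at their bounds, and turned to -0.43 with normexp. The calls of both genes were lost without the filter, with unmoderated variances and with normexp. With a common floor, and with normexp after outlying local backgrounds were replaced, 1 call was left. The part of attached mesonephros in the differences was not tested. Of 11 ubiquitous genes 10 were not called, with differences from -0.51 to 0.15, and Tfrc, the transferrin receptor, was 3.31-fold higher in XX.

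**Figure D5:**
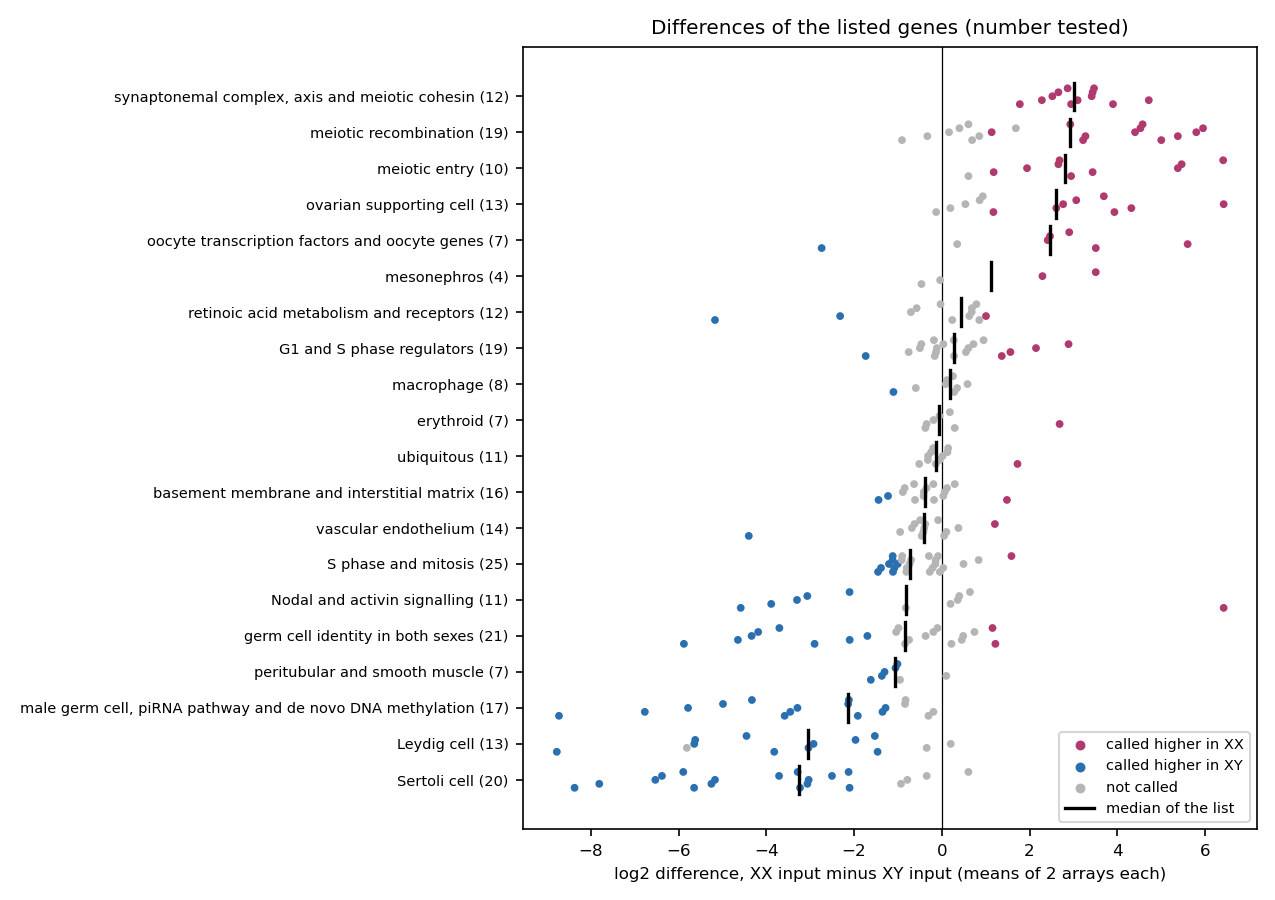
Differences in log2 signal, XX input minus XY input (horizontal axis), of the tested genes of 20 lists, with the median of each list as a bar and the number of tested genes in brackets. Medians run from 3.02 for the synaptonemal complex list to -3.26 for the Sertoli cell list, and the ubiquitous, erythroid and macrophage lists have medians between -0.14 and 0.18.

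The largest differences also reached genes outside the lists. Among all genes above background on each of the 4 arrays, 7 of the 10 largest toward XX were meiotic genes of the lists. Those lists were chosen with earlier results of these data known. Outside the lists were Tnfrsf19, a receptor of the tumour necrosis factor family (29.8-fold), and Cited4, a transcriptional co-regulator (21.0-fold). Tnfrsf19 read 4.47 and 4.45 in XX and -0.57 and -0.31 in XY. Toward XY, Defb19, a beta-defensin, read 5.27 and 5.67 in XY and -0.20 and -0.12 in XX (49.7-fold), and Cbln1 and Pdlim3 were 34.3-fold and 31.6-fold higher. Cbln1 was not called on its second, dim probe (adjusted p = 0.0784).

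Among genes above background on neither array of the lower group, the largest bounds toward XX were those of Inca1 (at least 77.7-fold), Fst, Figla, the calcium-binding protein gene Calb1 (at least 33.2-fold) and the keratin gene Krt20 (at least 27.2-fold). Toward XY they were those of Jak3, Ren1, Dhh, Dnmt3l and Sostdc1, an antagonist of bone morphogenetic proteins (at least 101-fold). The probes named Jak3 gave the largest bound of all, with 5.83 and 6.08 in XY and -3.91 and -3.71 in XX on the brighter probe (at least 485-fold) and at least 107-fold on the other. The reference places Insl3, the insulin-like hormone gene of Leydig cells, inside Jak3 on the same strand and ending at the same base. No probe was named Insl3, so these probes cannot be assigned to 1 of the 2 genes.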

How the data were processed

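The deposited scanner files held 1-colour intensity values per spot. Per the file headers the authors extracted them with Agilent Feature Extraction 9.5.3.1 (9.5 in the submitters' processing notes), which gives a background-subtracted processed signal and a mark for spots well above background. The authors also deposited a table of log2 values of the same arrays, which correlated with the log2 processed signal at r of at least 0.99999 and was used as an alternative. Its direction is that of the signal, and its 75th percentile was 5.05 on each of the 4 input arrays. The study's methods describe a floor for low signal and scaling to the 75th percentile; where the value 5.05 comes from is not given in the sources used here.

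The log2 of the processed signal was scaled to the 75th percentile of each array. Control spots and 30 probes marked as outliers were left out, leaving 41144 probes. A probe was tested when well above background on both arrays of XX or of XY input, which held for 18239 (44.3%). These comprised 17471 autosomal, 656 X-linked and 9 Y-linked probes and 103 of other or no position, with positions in mm8. Groups came from the sample titles. XX and XY input were compared with limma 3.58.1 in R 4.3.3 (lmFit and eBayes, 2 residual degrees of freedom, Benjamini-Hochberg adjustment), with a 2-fold minimum. Tables were joined in Python 3.11.15. The scripts were tested on simulated data. Arrays have no read depth, and their number limits the precision.

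Probes were named from a RefSeq gene table, 13089 by accession, 2156 by symbol and 980 by an older symbol, and 1246 had no name. For 33 probes the reference chromosome differed and no gene was assigned. The probe of a gene was that with the highest mean over the 4 arrays. The genes named are the label check genes, list members (called members by size, members whose role is described and members not called), the 10 largest differences in each direction above background on all 4 arrays, and the 5 largest bounds in each direction, apart from a few that are not reported here. The members and the 20 lists were chosen with earlier results of these data known. The alternatives were other percentiles, quantile normalization, normexp, a common floor, other filters on dim probes, all 8 arrays in the fit, a replicate block, unmoderated variances, an intensity trend, other fold minimums, the deposited table and leaving out each array.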

Additional observations from a re-analysis of the deposited data

How the results depend on the processing

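The counts of 1963 probes higher in XX and 1948 higher in XY stayed within 1.5 times under both other percentiles, quantile normalization, a common floor, an intensity trend and the deposited table, and ran from 1887 to 2069 and from 1804 to 2164 when 1 array was left out. They fell to 22 and 5 with normexp, to 751 and 759 with normexp after 16 outlying local backgrounds were replaced, to 383 and 367 without a filter on dim probes, to 982 and 1051 with all 8 arrays in the fit, to 528 and 484 with unmoderated variances and to 577 and 690 at a 4-fold minimum. They were 3922 and 3765 with no fold minimum. When the model was refitted on probes above background on all 4 arrays alone, 1333 were higher in XX and 1136 higher in XY. The cause of these changes was not tested, apart from the thresholds. The median of all autosomal probes moved to 0.07 with normexp and to -0.07 without the filter. Of 266 tested genes of the lists or among the largest differences, 137 were called. Of these, normexp kept 19, lost 112 and turned 6, namely Cdc20 (0.049), Cdh16 (-0.22), Hsf2bp (-0.28), Irx5 (-0.066), Msx2 (-0.057) and Taf4b (-0.15), and no other alternative turned one. The list medians that changed sign under normexp were those of S phase and mitosis (0.27), matrix (0.34), erythroid (0.38), macrophage (-0.40), mesonephros (-0.43) and ubiquitous genes (0.47). Without the filter, with unmoderated variances and with normexp, the calls toward XY were 14, 12 and 1 of 16 for Sertoli, 6, 7 and 2 of 10 for Leydig, 9, 9 and 0 of 13 for male germ cell, 6, 4 and 0 of 8 for germ cell identity and 2, 1 and 0 of 5 for NODAL and activin genes, and the calls toward XX were 11, 11 and 5 of 12 for the synaptonemal complex, 9, 6 and 3 of 11 for recombination, 6, 6 and 4 of 9 for meiotic entry and 7, 5 and 2 of 8 for ovarian supporting cell genes. Of the 137 calls, unmoderated variances lost 57, no filter 55, the 4-fold minimum 38, normexp with replaced backgrounds 35 and all 8 arrays 28. Leaving out 1 array lost 3 to 6. These included Rec114, which was 0.97 without XY replicate 1. The arrays share replicate numbers 1 and 2, but the labels do not say that a number marks a shared lot. Deviations of the arrays numbered 1 correlated at 0.28, or 0.45 over probes above background on all 4 arrays, and with the replicate number as a block the counts were 1982 and 1981 and all 137 calls were kept. Signal over background limits the dim genes, for which only bounds are given.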

Other observations

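Some genes carried probes that disagreed on direction. Of 3567 autosomal genes with several tested probes, 1048 had at least 1 probe called. All probes were called the same way in 414 of these, only some probes in 625, and 9 genes had probes called in both directions. Cstf3, a subunit of the cleavage stimulation factor that acts in 3′ end formation, read 3.62 and 3.98 in XX and 2.31 and 2.51 in XY on 1 probe, and 1.77 and 1.92 in XX against 3.39 and 3.42 in XY on another. Pias2, a SUMO ligase, was higher in XX on 1 probe (1.80 ± 0.13) and higher in XY on another (-1.32 ± 0.16), with 2 more probes not called. Atl1, which shapes the endoplasmic reticulum, was higher in XX on 2 probes (2.02 ± 0.13 on 1, and at least 2.47-fold on the other, which was above background on neither XY array) and higher in XY on 1 more (-1.42 ± 0.19). Adcyap1r1, Baiap2, Fgfr4, Ndor1, Ubfd1 and Zbtb24 were the others. These genes were chosen after their values were seen, and whether their probes match different transcripts was not tested.

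The called genes were spread over the autosomes. The share of tested genes called higher in XX ran from 8.35% on chromosome 15 to 13.4% on chromosome 6, and the share higher in XY was lowest on chromosome 16, with 40 of 399 genes, and highest on chromosome 8, with 98 of 663 (14.8%).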
